A study of Mus musculus with 11 samples.

Results

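The expression of 9 genes of vitamin A uptake and retinoid conversion was followed in small intestinal villi: Scarb1, Isx, Bco1, Rbp2, Lrat, Dhrs3, Rdh7, Aldh1a1 and Rxra. They were found by symbol in the platform's annotation, which gave 13 probes of these 9 genes among 45281 probes and 19057 named genes. Villi of 5 Villin-Gremlin samples and 6 wild type samples were each hybridised to an Illumina bead array. Both groups were C57Bl/6J mice aged 5 months. Villin-Gremlin mice carry a transgene in which the promoter of Villin, active in the intestinal epithelium, drives Gremlin, a secreted protein that blocks bone morphogenetic protein (BMP) signalling. Wild type mice lack the transgene, and the series compares villi of the 2 genotypes. The design text gives 6 samples for each, whereas labels of 5 and 6 arrays were used here. The labels name neither the segment of the small intestine nor separate mice, so p-values cover only how these samples vary, and that variation may be technical.

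Dietary vitamin A reaches the enterocyte as retinyl esters or as plant carotenoids such as beta-carotene. Carotenoids are taken up at the brush border and cleaved to retinal, retinal is reduced to retinol, and retinol is esterified and leaves in chylomicrons. A smaller share is oxidised to retinoic acid, which acts through nuclear receptors and also turns on Isx, a repressor of carotenoid uptake and cleavage. The small intestine is therefore both the entry point of the vitamin and a place where its supply is adjusted.

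Promoters of 3 members are shown because these genes cover the range of what the arrays found: Lrat was lower in Villin-Gremlin villi, Rbp2 was very bright in both groups, and Bco1 was detected on 0 of 5 Villin-Gremlin arrays and 3 of 6 wild type arrays. Each sequence gives the 250 bases before the RefSeq start in build GRCm38.p6, 5′ to 3′ on the strand of the gene. Capitals mark matches to the nuclear receptor hexamer AGGTCA, read on either strand.
Lrat, chr3:82903975-82904224, minus strand: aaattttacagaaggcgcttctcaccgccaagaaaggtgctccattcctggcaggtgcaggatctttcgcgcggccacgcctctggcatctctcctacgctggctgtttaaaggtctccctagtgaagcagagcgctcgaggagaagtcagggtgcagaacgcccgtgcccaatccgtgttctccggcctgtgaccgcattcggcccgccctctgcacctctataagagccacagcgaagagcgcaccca
Rbp2, chr9:98490287-98490536, plus strand: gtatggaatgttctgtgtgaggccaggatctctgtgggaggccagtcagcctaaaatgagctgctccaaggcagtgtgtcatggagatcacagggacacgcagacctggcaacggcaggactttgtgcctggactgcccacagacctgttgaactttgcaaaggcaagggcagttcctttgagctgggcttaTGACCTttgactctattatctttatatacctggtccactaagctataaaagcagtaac
Bco1, chr8:117095615-117095864, plus strand: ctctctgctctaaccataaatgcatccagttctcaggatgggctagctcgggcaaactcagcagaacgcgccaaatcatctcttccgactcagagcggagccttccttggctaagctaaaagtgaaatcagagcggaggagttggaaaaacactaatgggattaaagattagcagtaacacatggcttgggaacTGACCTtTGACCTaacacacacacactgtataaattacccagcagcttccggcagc

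This motif, a short hexamer that receptors paired with RXR bind in repeats, was present in 14.0% of all 32851 windows of this length, so a single match is common. Lrat had 0 matches. Rbp2 had 1, at bases 58 to 53 before the start and on the opposite strand. Bco1 had 2 on the opposite strand, at bases 56 to 51 and 49 to 44, which together form the direct repeat AGGTCANAGGTCA. That repeat was found in 11 of the 32851 windows (0.033%). Over the members, 8 genes had 13 windows in the table, and 4 of these windows held the hexamer, namely those of Bco1 and Rbp2, 1 of 2 for Rdh7 and 1 of 2 for Rxra. These matches are letters in a window and were not tested for binding.

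Expression of 2 of the 6 measured genes differed between the genotypes. Lrat, the acyltransferase that turns retinol into retinyl ester, fell 2.38-fold in Villin-Gremlin villi, and Rxra, the retinoid X receptor that pairs with many nuclear receptors, fell 1.55-fold. Rbp2, the retinol carrier of enterocytes, was among the brightest probes in both genotypes and differed by less than its spread. Isx, Rdh7 and Aldh1a1 had log2 differences of 0.45 to 0.54 in size and did not pass the test. Scarb1, Bco1 and Dhrs3 had no probe above background on enough arrays to be tested.

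A probe counted as measured when its detection p-value was under 0.01 on at least 5 of 11 arrays, which held for 8 of the 13 member probes, in 6 of the 9 genes. Values are normalized log2 signals, and differences are log2 fold changes, Villin-Gremlin minus wild type. The standard error (SE) beside each comes from limma's fit over all 14203 measured probes. Of the 8 member probes 2 were called at a Benjamini-Hochberg adjusted p under 0.05, both lower and 0 higher. The background was 30.8% of all measured probes called in either direction, 14.4% lower and 16.4% higher, so a share of 2 in 8 is near that background and is no result about these genes as a group. By genes, 2 of 6 members were called and the median log2 fold change was -0.50, against 32.5% of 8234 measured genes and a median of -0.00015. Groups without overlap were found for 18.9% of all measured probes and for 0 of the 8 member probes. Median raw signal ran from 157 to 207 per array and 13536 to 14808 probes were above background on each. In these bulk samples, fewer cells of a type and less RNA per cell cannot be told apart.

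**Figure D1:**
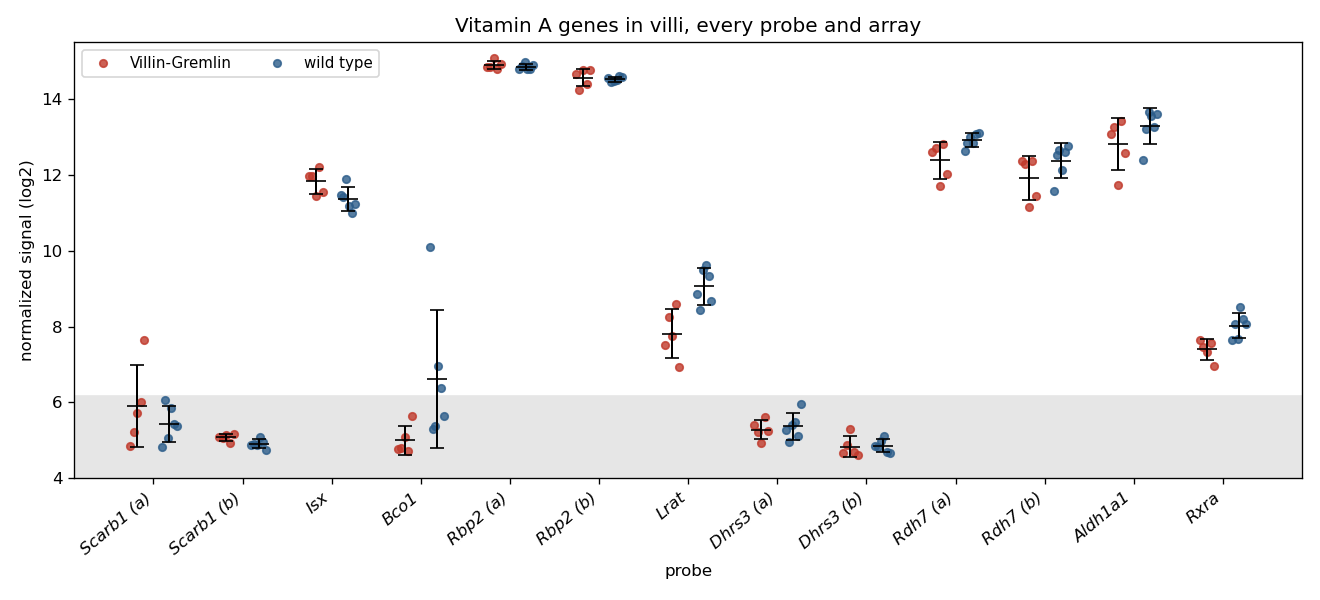
Normalized log2 signal (vertical axis) of each of the 13 member probes (horizontal axis) on every array, with Villin-Gremlin in red to the left of wild type in blue. Bars are the mean and SD over 5 Villin-Gremlin and 6 wild type arrays, the grey band reaches up to the highest, over arrays, of the lowest values among detected probes, and a and b mark different probes of a gene. Lrat and Rxra lie lower in Villin-Gremlin villi with a small overlap, the Rbp2 probes lie between 14.26 and 15.09 in both groups, and the Dhrs3 probes stay in the band.

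Uptake came first in the order of the pathway. Scarb1 encodes the scavenger receptor that takes up carotenoids and other lipids at the brush border. Its probe ILMN_1223315 read 4.84, 5.23, 5.73, 6.01 and 7.65 on Villin-Gremlin arrays 1 to 5 and was detected on 2 of these 5. On wild type arrays it ran from 4.81 to 6.06 with a median of 5.40 and was detected on 0 of 6. The groups overlap, and apart from the highest Villin-Gremlin array the values lie near background. The second probe, ILMN_1218449, was above background on none of the 11 arrays, with 4.93 to 5.17 in Villin-Gremlin and 4.75 to 5.09 in wild type villi. With no detection filter, limma gave log2 differences of 0.46 (adjusted p = 0.688) and 0.17 (adjusted p = 0.231) for the 2 probes. A dim probe does not by itself show that a gene is absent. The probe of Fabp1, an abundant fatty acid carrier of enterocytes, and that of Cd36, a fatty acid transporter, were also above background on none of the 11 arrays. Whether such probes read poorly or their RNA is low in these villi was not tested.

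Isx is the homeodomain repressor that lowers Scarb1 and Bco1. Its probe, ILMN_1240449, read 11.97, 11.98, 11.45, 12.21 and 11.55 on Villin-Gremlin arrays 1 to 5, against 11.01 to 11.89 with a median of 11.32 on wild type arrays. Villin-Gremlin arrays 1, 2 and 4 were above every wild type array, and the other 2 lay within the wild type range. Means were 11.83 ± 0.32 in Villin-Gremlin and 11.37 ± 0.31 in wild type villi (SD, n = 5 and 6). The log2 fold change was 0.46 ± 0.18 (SE, 95% interval 0.07 to 0.85) and limma's adjusted p was 0.0711, so Isx was not called. It was called in 4 of 23 alternatives, among them the fits that left out wild type 3 (limma adjusted p = 0.0256) or Villin-Gremlin 3 (limma adjusted p = 0.0430).

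Bco1 encodes the oxygenase that cleaves beta-carotene into retinal. Its probe, ILMN_2713638, was detected on 0 of 5 Villin-Gremlin arrays, with values of 4.76, 4.80, 5.09, 4.72 and 5.63, and on 3 of 6 wild type arrays, with values from 5.30 to 10.10 and a median of 6.00. Wild type 1 stood far above the rest at 10.10, and the next wild type array read 6.97. The remaining 5 wild type arrays ran from 5.30 to 6.97, so that the highest Villin-Gremlin array, at 5.63, lies inside their range. Set against the level of the dimmest detected probes, wild type was at least 1.51-fold higher than Villin-Gremlin over all arrays. That bound rests on wild type 1, since no bound above 1 remained without it. The difference of means was -1.63 (log2) with all arrays and -0.93 without wild type 1. With no detection filter limma's adjusted p was 0.255, and 0.116 without wild type 1.

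Rbp2, a cytosolic retinoid-binding protein, carries retinol and retinal inside the enterocyte. Probe ILMN_2776265 read 14.84, 14.84, 15.09, 14.81 and 14.92 on Villin-Gremlin arrays 1 to 5, against 14.78 to 14.97 with a median of 14.84 on wild type arrays. Probe ILMN_2813859 read 14.66, 14.26, 14.78, 14.40 and 14.76 on Villin-Gremlin arrays, against 14.44 to 14.62 with a median of 14.53 on wild type arrays. Both pairs of groups overlap throughout. The log2 fold change was 0.04 ± 0.10 (SE, 95% interval -0.18 to 0.27, adjusted p = 0.784) for ILMN_2776265 and 0.04 ± 0.12 (SE, 95% interval -0.22 to 0.31, adjusted p = 0.836) for ILMN_2813859, both from limma. The first of these probes ranked between 7 and 63, and the second between 65 and 177, of 45281 probes by raw signal on every array. Raw Rbp2 signals ran from 19199 to 35475 in Villin-Gremlin and from 21196 to 32211 in wild type villi, near the top of arrays whose brightest probes read 30830 to 46311. Whether signals at that level still rise in step with RNA was not tested.

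Lrat esterifies the retinol that Rbp2 carries, which is the step before export in chylomicrons. Its probe, ILMN_2653227, read 7.52, 8.26, 7.76, 8.59 and 6.93 on Villin-Gremlin arrays 1 to 5, against 8.42 to 9.62 with a median of 9.09 on wild type arrays. Of the Villin-Gremlin arrays 4 lay below every wild type array, and Villin-Gremlin 4 overlapped the lowest of them. Means were 7.81 ± 0.65 in Villin-Gremlin and 9.06 ± 0.48 in wild type villi (SD, n = 5 and 6). The log2 fold change was -1.25 ± 0.30 (SE, 95% interval -1.89 to -0.61), which put Villin-Gremlin at 42.0% of wild type, with limma's adjusted p = 0.00639. Lrat was called lower in all 23 alternatives tried, with log2 fold changes from -1.45 to -0.84, the smallest being that of the fit without background correction. Lrat against Rbp2 was among the 3 computed pairs (difference -1.29, two-sided exact permutation test, p = 0.0108, adjusted p = 0.0162). The pairs were chosen after the values were seen, and the Rbp2 signals lie near the top of the range. This p-value is therefore no evidence that the changes of Lrat and Rbp2 differ.

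Dhrs3, which reduces retinal back to retinol, had 2 probes, and neither was above background on any of the 11 arrays. Probe ILMN_1225125 ran from 4.92 to 5.60 in Villin-Gremlin and from 4.95 to 5.95 in wild type villi. Probe ILMN_2759095 ran from 4.61 to 5.29 in Villin-Gremlin and from 4.65 to 5.11 in wild type villi. These values are background and give no level for the gene.

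Rdh7 belongs to a family of short-chain dehydrogenases that oxidise retinol to retinal and also act on steroids. Probe ILMN_2871249 read 12.62, 12.72, 11.71, 12.82 and 12.04 on Villin-Gremlin arrays 1 to 5, against 12.64 to 13.10 with a median of 12.93 on wild type arrays. Villin-Gremlin 3 and 5 were lowest and lay clear of wild type, and Villin-Gremlin 1 was just below the lowest wild type array. The log2 fold change was -0.54 ± 0.20 (SE, 95% interval -0.97 to -0.11) with limma's adjusted p = 0.0550, so this probe was not called. It was called in 8 of 23 alternatives, 3 of which left out a single array (Villin-Gremlin 2, Villin-Gremlin 4 or wild type 1, adjusted p from 0.0311 to 0.0462). The other probe, ILMN_1226515, read 12.37, 12.29, 11.14, 12.37 and 11.45 on Villin-Gremlin arrays, against 11.57 to 12.78 with a median of 12.57 on wild type arrays. It was again lowest on Villin-Gremlin 3 and 5, wild type 1 was the lowest wild type array, and the log2 fold change was -0.45 ± 0.28 (SE, limma adjusted p = 0.232).

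Aldh1a1 oxidises retinal to retinoic acid. Its probe, ILMN_1222734, read 13.09, 13.26, 11.74, 13.44 and 12.59 on Villin-Gremlin arrays 1 to 5, against 12.40 to 13.65 with a median of 13.42 on wild type arrays. Villin-Gremlin 3 was lowest of all, and Villin-Gremlin 5 and wild type 1 followed it, so the groups overlap over most of their range. The log2 fold change was -0.46 ± 0.30 (SE, 95% interval -1.12 to 0.19) with limma's adjusted p = 0.271, and no alternative called it. It was -0.19 without Villin-Gremlin 3 and -0.64 without wild type 1.

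**Figure D2:**
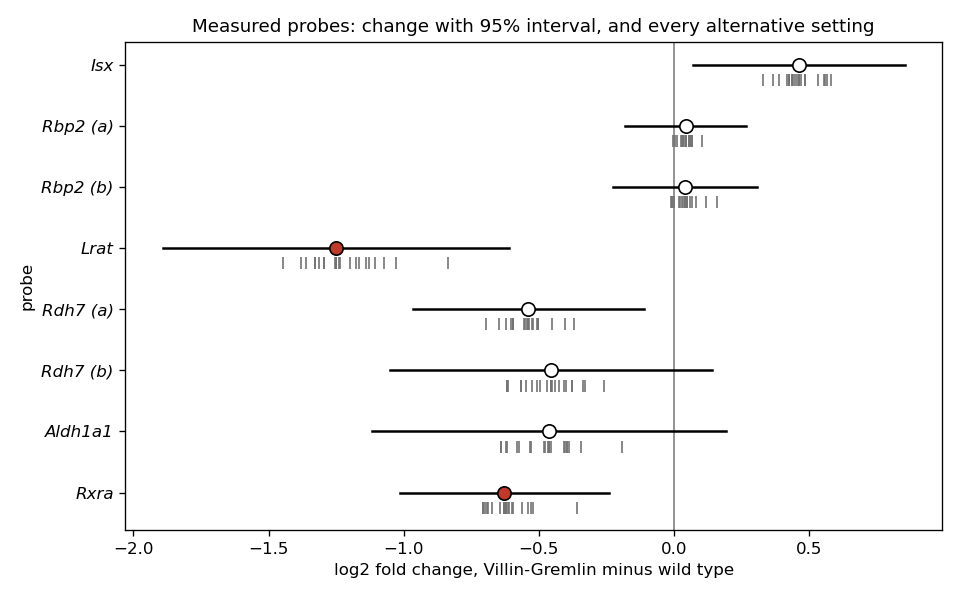
Log2 fold change (horizontal axis, Villin-Gremlin minus wild type) of the 8 measured member probes (vertical axis) with its 95% interval. Filled points are called at an adjusted p under 0.05, open points are not, and each grey tick below a point is the value under 1 alternative setting. All ticks of Lrat lie between -1.45 and -0.84 and all of Rxra between -0.71 and -0.36, while those of both Rbp2 probes lie around 0.

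The arrays that were low for Rdh7 and Aldh1a1 also stood apart in some markers of intestinal position, and 4 of the 8 measured proximal markers are given here by array, chosen after their values were seen. Pdx1, a transcription factor of proximal small intestine, read 9.50, 10.15, 11.40, 11.19 and 11.54 on Villin-Gremlin arrays 1 to 5. On wild type arrays it read 9.58 to 10.15, except wild type 1 at 5.56. Cybrd1, which reduces dietary iron at the duodenal surface, was highest on Villin-Gremlin 3 and 5, at 10.63 and 10.71, against 7.18 to 7.94 on the other Villin-Gremlin arrays and 4.58 to 5.21 on wild type arrays. Slc40a1, the iron exporter ferroportin, ran from 12.62 to 14.59 in Villin-Gremlin and from 8.32 on wild type 1 to 12.17 in wild type villi. Lct, the lactase of the brush border, read 12.83, 13.05, 10.99, 12.79 and 12.42 on Villin-Gremlin arrays 1 to 5, against 14.20 to 14.81 on wild type arrays with wild type 1 second highest at 14.62. It was thus lowest on Villin-Gremlin 3 and 5, where Cybrd1 was highest. Other proximal markers did not set both arrays apart: Gkn3 read 10.27 on Villin-Gremlin 5 but 7.36 on Villin-Gremlin 3. Slc46a1 was highest of that group on Villin-Gremlin 4, at 13.52. Villin-Gremlin 3 and 5 also had the lowest median raw signals of all arrays, 167 and 157. The other arrays had 176 to 207, with wild type 1 at 192. Onecut2 and Gata4 had wild type 1 inside the range of the other wild type arrays, at 11.90 and 7.90. Slc46a1, another of the 8 proximal markers, read 12.95 on wild type 1, against 13.25 to 13.77 on the other wild type arrays. The ileal markers Cubn and Mep1b were highest of their group on wild type 1, at 10.72 and 14.34, whereas Slc51a, Slc51b and Nr1h4 were not. Within its group, wild type 1 therefore had the lowest Pdx1, Slc40a1 and Slc46a1 but not the lowest Lct, Onecut2 or Gata4. It also had the highest Bco1 and the lowest Aldh1a1 of that group.

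Of the 8 measured proximal markers, 3 were higher (Cybrd1, Slc40a1 and Gkn3) and 1 was lower (Lct). Over all measured genes, 17.2% were higher and 15.4% lower. Cybrd1 entered through Villin-Gremlin alone, being detected on 5 of 5 Villin-Gremlin and 0 of 6 wild type arrays, and Gkn3 was detected on 5 of 5 and 3 of 6. The summed linear signal of the 8 ran from 25444 to 55183 in Villin-Gremlin and from 36253 to 53530 in wild type villi. This sum takes in 2 bright probes that went opposite ways, Slc40a1 (log2 fold change 3.14) and Lct (-2.06), so its overlap does not show that these markers were unchanged. Of the 5 measured ileal markers, 1 was higher (Nr1h4) and 3 were lower (Cubn, Slc51b and Mep1b, with Cubn detected on 2 of 5 Villin-Gremlin arrays). Their sums were 28281 to 37561 in Villin-Gremlin and 35468 to 45813 in wild type villi, highest on wild type 1. The proximal marker S100g, a calcium-binding protein, was not measured: it was detected on 4 of 5 Villin-Gremlin arrays (4.98 to 9.96) and 0 of 6 wild type arrays (4.79 to 4.97). The ileal genes Slc10a2 and Fgf15 were above background on no array, and Fabp6 on 1 of 5 Villin-Gremlin and 0 of 6 wild type arrays. Wild type 1 also had the largest sum of stromal markers, 7229 against 515 to 3812 on the other wild type arrays and 328 to 1120 in Villin-Gremlin villi. The part of intestinal position, of stroma and of array brightness in the values of Rdh7, Aldh1a1 and Bco1 was not tested.

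**Figure D3:**
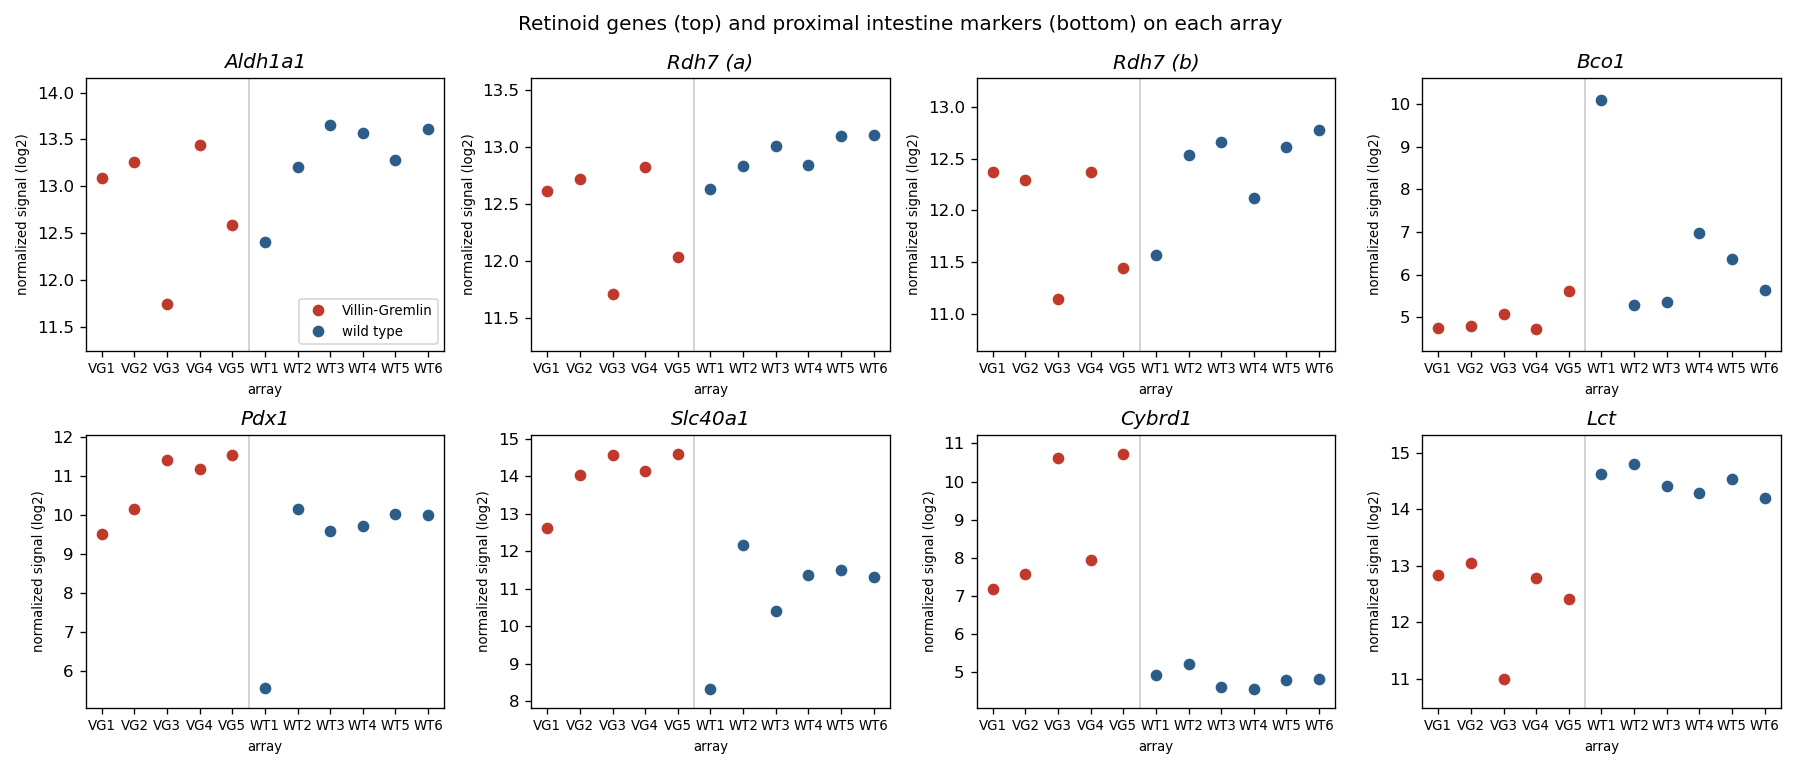
Normalized log2 signal (vertical axes) on each array (horizontal axes, VG for Villin-Gremlin in red, WT for wild type in blue) of Aldh1a1, both Rdh7 probes and Bco1 in the upper row and of 4 proximal markers, Pdx1, Slc40a1, Cybrd1 and Lct, in the lower row. Aldh1a1, Rdh7 and Lct are lowest on Villin-Gremlin 3 and 5 within that group, and wild type 1 has the highest Bco1 (10.10) and the lowest Pdx1 (5.56) but a high Lct (14.62).

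Rxra encodes the retinoid X receptor alpha, the common partner of the receptors for retinoic acid, vitamin D, fatty acids, bile acids and oxysterols. Its probe, ILMN_2741479, read 7.64, 7.46, 7.32, 7.58 and 6.97 on Villin-Gremlin arrays 1 to 5, against 7.63 to 8.52 with a median of 8.06 on wild type arrays. The groups touch, since Villin-Gremlin 1 and the lowest wild type array differ by about the second decimal, and all other Villin-Gremlin arrays are lower. Means were 7.39 ± 0.27 in Villin-Gremlin and 8.02 ± 0.33 in wild type villi (SD, n = 5 and 6). The log2 fold change was -0.63 ± 0.18 (SE, 95% interval -1.01 to -0.24), or 64.7% of wild type, with limma's adjusted p = 0.0176. The call held in 22 of 23 alternatives, with log2 fold changes from -0.71 to -0.36, and was lost with the replicate number of the titles as a block (adjusted p = 0.0557). Its relative Rxrb did not pass the test with its brighter probe (-0.14 ± 0.12, SE, limma adjusted p = 0.416) or its dimmer probe (-0.23 ± 0.21, SE, limma adjusted p = 0.434). The change of Rxra lay below that of the brighter Rxrb probe (difference -0.48, two-sided exact permutation test, p = 0.0455, adjusted p = 0.0455 over 3 computed pairs). The pairs were chosen after the values were seen, so this p-value is no evidence that the 2 receptors differ.

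Markers of other cell types also differed between the groups in which Lrat and Rxra were called. The background by genes was 17.2% higher and 15.4% lower. T cell and intraepithelial lymphocyte markers were lower for 9 of 10 measured genes, and their summed linear signal was 7340 to 11293 in Villin-Gremlin and 19063 to 32250 in wild type villi. Within that list the probes of Cd8a, Gzmb and Ptprc were not measured. Cd8b1 is the gene not counted as lower, since its brighter probe had a log2 fold change of -0.02 (limma adjusted p = 0.915). That probe read 11.78 to 12.19 and is a large part of the sum in Villin-Gremlin villi. The dimmer probe of Cd8b1 had -2.10 (limma adjusted p = 2.21e-04) and was detected on 2 of 5 Villin-Gremlin and 6 of 6 wild type arrays. Macrophage and dendritic cell markers were lower for 2 of 4 (sums of 372 to 728 in Villin-Gremlin and 1468 to 2642 in wild type villi), with Csf1r, Itgax, Adgre1, Itgam, C1qa and C1qb not measured. The lower ones were Fcer1g (-2.10), the brightest of the 4, and Tyrobp (-1.04). Lyz2 (-0.72, limma adjusted p = 0.197) and Cd14 (-0.32, limma adjusted p = 0.353) did not pass. These calls therefore do not show that macrophages were fewer. Stromal markers were called for 0 of 4 (sums of 328 to 1120 in Villin-Gremlin and 515 to 7229 in wild type villi, highest on wild type 1), and 10 stromal genes, collagens and Pecam1 included, were not measured. Enterocyte markers were lower for 2 of 8, Krt20 and Vil1, with sums of 135948 to 150893 in Villin-Gremlin and 154688 to 175764 in wild type villi, and Fabp1 and Fabp2 were not measured. Villus tip markers were lower for 6 of 10 (sums of 39332 to 59559 in Villin-Gremlin and 59975 to 108242 in wild type villi). Their log2 fold changes were -3.99 for Nt5e, -3.65 for Slc28a2, -3.32 for Ada, -2.59 for Enpp3, -1.59 for Klf4 and -0.73 for Fos. Creb3l3, Junb, Egfr and Apoa4 did not pass. Linear sums weigh bright probes most, so they do not measure the number of cells. Apoa4, which is in both the enterocyte and the villus tip list, read 14.51 to 15.09 and did not pass (-0.13, limma adjusted p = 0.432). Such levels, like those of Rbp2, lie near the top of the range, and whether they still rise in step with RNA was not tested. The part of these cell types and positions in the lower Lrat and Rxra signals was not tested.

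The non-member genes whose array-by-array pattern was nearest to a called member were found over the 11 arrays, by the root-mean-square difference of log2 values after subtracting each gene's wild type mean. Nearest to Lrat were Rcsd1, at 0.303 and with a log2 fold change of -1.31, and Limk1, at 0.347. Limk1 entered through wild type alone, being detected on 0 of 5 Villin-Gremlin and 5 of 6 wild type arrays. Nearest to Rxra were Myo7b, at 0.134, and Paxx, at 0.143, with log2 fold changes of -0.52 and -0.64. Nearness to a called member takes in the difference between the groups, so no test is given for these genes.

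Around these 9 genes, 7 wider lists with 74 genes gave 43 measured genes, of which 8 were higher, 12 were lower and 23 did not pass the test. That is 46.5% called, against 32.5% of all measured genes by the same rule (17.2% higher and 15.4% lower), and the median log2 fold change was -0.10. The lists were chosen with earlier results of these data known, so the larger share is no result about these genes as a group. Among carriers, Ttr, which carries thyroid hormone and the retinol-binding protein complex in blood, was 2.70-fold higher (1.43 ± 0.30, SE, limma adjusted p = 0.00309), with 8.88 ± 0.39 in Villin-Gremlin and 7.45 ± 0.68 in wild type villi (SD, n = 5 and 6). Rbp7, another cellular retinol carrier, had a log2 fold change of 0.17 ± 0.50 (SE) and did not pass. Stra6, the retinol-binding protein receptor, and both retinoic acid carriers Crabp1 and Crabp2 were above background on no array.

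The enzymes that oxidise or reduce retinoids went both ways, against a background of 17.2% of all measured genes higher and 15.4% lower. Of the 14 measured on this list, 3 were higher and 4 lower. Rdh9, a close relative of Rdh7, had the largest change of the list. It read 10.68, 9.35, 10.20, 11.003 and 10.45 on Villin-Gremlin arrays 1 to 5, against 12.01 to 12.37 with a median of 12.19 on wild type arrays. The groups did not overlap, and the log2 fold change was -1.85 ± 0.23 (SE, limma adjusted p = 9.84e-05), 3.61-fold lower. Retsat, which saturates retinol, was also lower (-0.87 ± 0.21, SE, limma adjusted p = 0.00738). Dhrs4 and Rdh11, which reduce retinal, were higher by 0.82 ± 0.14 and 0.77 ± 0.16 (SE, limma adjusted p = 8.47e-04 and 0.00258). The remaining called genes, named after their values were seen, were Adh1 (0.69, higher) and Rdh16 and Rdh14 (-1.09 and -0.31, lower). The dimmer probe of Rdh14 had -0.30 and did not pass (limma adjusted p = 0.228). Bco2, the oxygenase that cleaves carotenoids off centre, Adh4 and Aldh1a7 had log2 fold changes of -0.14, 0.67 and -0.42 and did not pass. Aldh1a2 and Aldh1a3, the other retinal dehydrogenases, were not measured.

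Rdh7, Rdh9 and Rdh16 lie in 1 cluster on chromosome 10 with Rdh1, Rdh19 and Rdh16f2, by the order of genes in the RefSeq table, and whether their probes read transcripts of more than 1 of these relatives was not tested. Between these neighbours the change of Rdh9 lay below that of the brighter Rdh7 probe (difference -1.31), and the difference of their levels on each array did not overlap between groups. The two-sided exact permutation test gave p = 0.00216, the smallest that 462 splits allow (adjusted p = 0.00649 over 3 computed pairs, chosen after the values were seen). Rdh9 had the largest change of its list, without overlap of the groups, and the pair was chosen with this known. A small p-value was therefore likely from the choice alone, and it is no evidence that the changes of Rdh9 and Rdh7 differ. Rdh1 and Rdh19 were not measured.

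Downstream of retinal, the breakdown list had 1 measured gene: Cyp2s1, a cytochrome whose human counterpart is reported to oxidise retinoic acid, was 1.92-fold higher (0.94 ± 0.13, SE, limma adjusted p = 1.57e-04), while Cyp26a1 was detected on 0 arrays and Cyp26b1 on 1 of 5 Villin-Gremlin and 0 of 6 wild type arrays. Of the 7 measured genes of ester hydrolysis, other esterification and lipoprotein export, 3 were lower and 0 higher. The background was 15.4% of all measured genes lower and 17.2% higher, and the list was chosen with earlier results known. This count is therefore no result about these genes as a group. Lipe, a hormone-sensitive lipase that also hydrolyses retinyl esters, was 2.79-fold lower (-1.48 ± 0.15, SE, limma adjusted p = 1.79e-05). Apob, the structural protein of chylomicrons, and Ces1e, a carboxylesterase, were lower by -0.67 ± 0.20 and -1.18 ± 0.37 (log2 fold change ± SE, limma adjusted p = 0.0206 and 0.0285). Both of these calls depended on single arrays: limma's adjusted p of Apob was 0.0552 without Villin-Gremlin 3, and that of Ces1e was 0.0541 to 0.0673 without Villin-Gremlin 3, Villin-Gremlin 5, wild type 2, wild type 4, wild type 5 or wild type 6, each left out alone. Dgat1, which can esterify retinol as well as diacylglycerol, had a log2 fold change of -0.32 ± 0.15 (SE, limma adjusted p = 0.117).

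**Figure D4:**
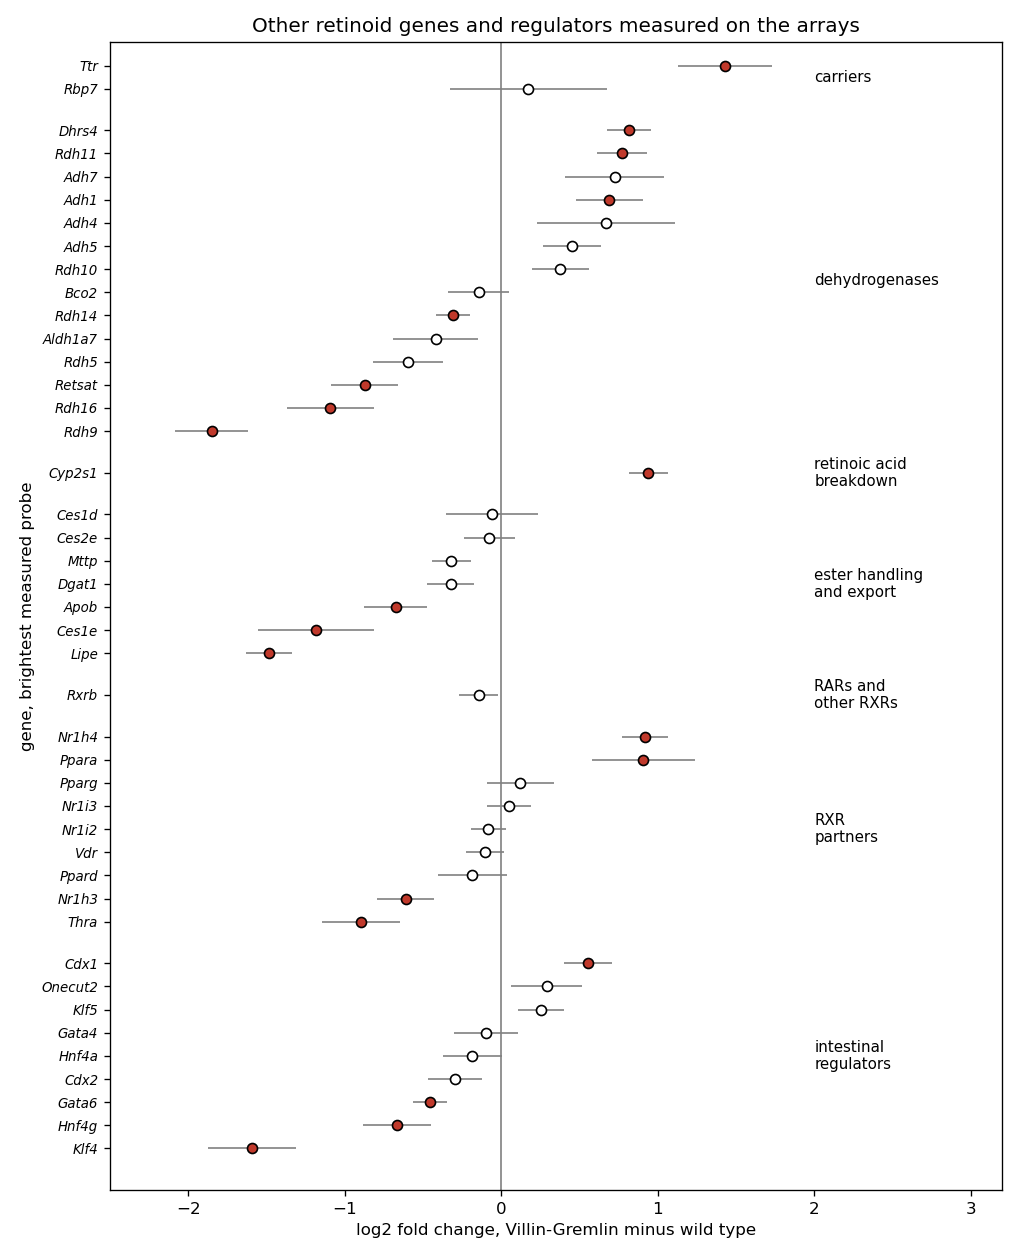
Log2 fold change (horizontal axis, Villin-Gremlin minus wild type, bars of 1 SE) of the 43 measured genes of 7 wider lists (vertical axis, grouped by list and ordered by value). Filled points are called at an adjusted p under 0.05, 8 higher and 12 lower. The dehydrogenases spread from Rdh9 at -1.85 to Dhrs4 at 0.82, and the genes of ester handling and export from Lipe at -1.48 to Ces1d at -0.06.

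Among receptors, the retinoic acid receptors Rara, Rarb and Rarg and the third RXR, Rxrg, were not measured, so Rxra and Rxrb were the receptors of this family with a signal. Of the 9 measured partners of RXR, 2 were higher and 2 lower, against a background by genes of 17.2% higher and 15.4% lower. Nr1h4, the bile acid receptor FXR, was higher (0.92 ± 0.15, SE, limma adjusted p = 4.66e-04) and so was Ppara, a fatty acid receptor (0.91 ± 0.33, SE). The limma adjusted p of Ppara, 0.04995, was just inside the threshold, and the call was lost in 13 of 22 alternatives, among them the fits that left out 1 of Villin-Gremlin 1, 2, 4 or 5 or wild type 1, 2, 3 or 6. Thra, a thyroid hormone receptor, and Nr1h3, the oxysterol receptor LXR alpha, were lower (-0.90 ± 0.25 and -0.61 ± 0.18, SE, limma adjusted p = 0.0147 and 0.0227). Nr1i2 and Pparg had log2 fold changes of -0.08 and 0.12 and did not pass. Of the 3 probes of Nr1i3, the brightest and 1 other did not pass (0.05 and 0.03), and another was called higher (0.40, limma adjusted p = 0.0335). Of 9 intestinal transcription factors, Cdx1 was higher (0.55 ± 0.15, SE) and Klf4, Gata6 and Hnf4g were lower (-1.59 ± 0.28, -0.45 ± 0.11 and -0.67 ± 0.22, SE), all by limma's test, and Hnf4a, Gata4 and Onecut2 did not pass. The Gata6 value is that of its brighter probe, and its dimmer probe did not pass (-0.13, limma adjusted p = 0.662). Hnf4g was called in 14 of 23 alternatives, with limma's adjusted p of 0.0526 to 0.0872 without Villin-Gremlin 3, Villin-Gremlin 5, wild type 2, wild type 3 or wild type 4, each left out alone.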

How the data were processed

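The deposited table of raw bead signals gives, per the file headers, an intensity and a detection p-value for each probe and array. The intensity values are on a linear scale and, per the deposited values, not normalized. A second deposited table holds the authors' processed log2 values, made by a method not given in the sources used here. Each of its columns matched its own array best across probes, its medians were 5.04 to 5.13, and it served as an alternative.

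Groups came from the genotype label, 5 Villin-Gremlin and 6 wild type. Signals were background-corrected from the detection p-values with an offset of 16, log2 transformed and quantile normalized by the neqc function (limma 3.58.1, R 4.3.3). Probes detected (p under 0.01) on at least 5 arrays entered a fit of genotype alone (lmFit and eBayes), with Benjamini-Hochberg adjustment over all 14203 of them. A gene of the wider lists was read by its measured probe with the highest mean. The fit was also run on simulated data, with independent noise for each probe and few changed probes. That setting is simpler than these arrays, so it does not show how the fit behaves on them. For probes above background on no array of a group, the bound sets the brighter mean against the higher, per array, of that probe and the dimmest detected probe.

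The members and lists were chosen with earlier results of these data known. Named genes are all member probes, from each wider list up to 4 called genes with the smallest p and up to 3 measured genes with the largest p, and the 2 genes nearest in pattern to each called member. Symbols came from the platform annotation. Promoter windows came from RefSeq. The alternatives changed the values (background correction left out, offset 50, scaling by medians, the authors' log2 table), the filter (none, or all arrays), the fit (array weights, trended robust prior, sex from Y-linked probes, replicate block, a gene's mean probe) or the arrays: each left out in turn, and Villin-Gremlin 5 and wild type 1 left out together. The replicate numbers do not pair the samples: correlations of the deviations of same-numbered samples ran from -0.21 to 0.12 by the titles, and from -0.16 to 0.12 by the descriptions, whose numbers match other arrays. A block by the description numbers was added after the values were seen.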

Additional observations from a re-analysis of the deposited data

Results flagged for a closer look

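Of 80 groups of arrays examined, over the member probes and the genes named from the wider lists, 9 had an array far from the others of its group by Dixon's test. Chance flags about 1 group in 20. Wild type 1 accounts for 4 of the 9. On that array Bco1 read 10.10, against 5.30 to 6.97 on the other wild type arrays, and Aldh1a1 read 12.40, against 13.21 to 13.65. Ttr read 6.07 there, against 7.57 to 7.88, and Adh4, an alcohol dehydrogenase that oxidises retinol, read 9.33, against 11.42 to 12.10. Villin-Gremlin 5 accounts for 3. Ttr read 9.56 on it, against 8.64 to 8.87 on the other Villin-Gremlin arrays, Pparg read 10.91, against 9.73 to 10.07, and Nr1i3 read 10.95, against 11.28 to 11.39. The others were Nr1i2 on wild type 5, at 10.43 against 10.67 to 10.77, and Gata6 on wild type 6, at 12.75 against 13.01 to 13.14. Without Villin-Gremlin 5 and wild type 1, the log2 fold change of Ttr was 0.99, and without wild type 1 alone that of Adh4 was 0.27, against 1.43 and 0.67 over all arrays.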

How the results depend on the processing

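With 5 and 6 arrays, small differences were within the spread. Of the member probes 2 were called, 2 to 3 with any array left out, 4 with a trended and robust variance prior (1 higher, 3 lower) and 1 with the replicate number of the titles as a block, which ended the call of Rxra (limma adjusted p = 0.0557) and, among the named genes of the wider lists, those of Ces1e and Nr1h3. The numbers share no source, so the block is only a check: 1 of 5 same-numbered pairs correlated best with its own number. A replicate block by the number in the descriptions, added after the values were seen, called 2 member probes, 3632 of all probes and 17 genes of the wider lists, ended the calls of Apob and Nr1h3 (adjusted p = 0.0993 and 0.0775), and 0 of 5 pairs correlated best with their own number. Of all probes 4378 were called, with 3398 to 4735 over the alternatives, 3403 with the replicate block and 3689 to 4287 with an array left out. The share of calls that were higher was 53.2%, and 44.6% with median scaling. Of the wider lists 20 genes were called, with 14 to 23 over the alternatives, 16 with the replicate block and 16 to 20 with an array left out. Lrat, Rdh9, Retsat, Dhrs4, Cyp2s1, Lipe, Ttr, Nr1h4, Klf4 and the brighter probe of Gata6 were called in all 23 alternatives. Rdh11 (adjusted p = 0.0501) and Cdx1 (adjusted p = 0.0824) were lost with median scaling. Signs turned only for values that were called in neither setting. With array weights, probe ILMN_2813859 of Rbp2 was -0.0086, Ces2e 0.011, Ces1d 0.13 and Pparg -0.085. With median scaling, Pparg was -0.010 and Nr1i3 -0.094. With the authors' log2 values, Nr1i3 was -0.0047. Without Villin-Gremlin 5 and wild type 1, Ces1d was 0.093 and Pparg -0.19, with the replicate block Gata4 was 0.0026, and with the block by description number Nr1i3 was -0.0048. With an array left out, the Rbp2 probes ILMN_2813859 and ILMN_2776265 ran from -0.011 to 0.12 and from -0.0030 to 0.068, Rbp7 from -0.21 to 0.68, Bco2 from -0.23 to 0.046, Ces2e from -0.16 to 0.017, Ces1d from -0.23 to 0.090, Pparg from -0.083 to 0.21, Nr1i3 from -0.0048 to 0.13 and Gata4 from -0.22 to 0.0043. The cause was not tested for any of these. Dim probes limit what can be said of Scarb1, Bco1 and Dhrs3.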

Other observations

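Gut hormone and goblet cell markers, measured beside the retinoid genes, also went both ways, against a background of 17.2% of measured genes higher and 15.4% lower. Of 8 measured enteroendocrine markers, Tac1, a tachykinin precursor, and Gcg, the precursor of the glucagon-like peptides, were higher. Tac1 was detected on 5 of 5 Villin-Gremlin arrays (6.80 to 7.76) and 1 of 6 wild type arrays (5.24 to 6.11, near background). Gcg had a log2 fold change of 1.41 ± 0.28 (SE, n = 5 Villin-Gremlin and 6 wild type, limma adjusted p = 0.00211). Sct, which encodes secretin, and Nts, which encodes neurotensin, were lower, by -1.15 ± 0.19 and -1.37 ± 0.29. Of 7 measured goblet cell markers, Spink4 and Agr2 were higher (1.42 ± 0.15 and 0.57 ± 0.17) and Clca1 was lower (-0.59 ± 0.18). Muc2, the main intestinal mucin, had -0.41 ± 0.22 and did not pass the test. Of 3 measured Paneth cell markers 0 were called at an adjusted p under 0.05.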
